A study of Mus musculus with 15 samples.

Results

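The interferon-inducible GTPases examined here were 10 mouse genes of 3 families: the guanylate-binding proteins Gbp2, Gbp3 and Gbp7, the immunity-related GTPases (IRG proteins) Irgm1, Irgm2, Igtp, Iigp1 and Ifi47, and the dynamin-like Mx1 and Mx2. They are 10 of the 15964 genes with a probe set of their own, taken by symbol from the platform annotation, which assigned 14 of 36701 non-control probe sets to 1 of them alone. Of the 14, 11 lay on the U74A array, 1 on U74B and 2 on U74C. RNA came from Ba/F3-beta cells, a mouse pro-B cell line that depends on IL-3 for growth, and all cells had been transfected with siRNA. The groups were cells given Stat5a and Stat5b siRNAs and IL-3 for 30 min, the same siRNAs and IL-3 for 2 h, and 3 groups given a scrambled control siRNA: unstimulated, IL-3 for 30 min and IL-3 for 2 h. Each group had 1 array on each of the 3 designs, so no value here has a replicate check and no p-value was computed. Stat5 siRNA cells without IL-3 were not analysed here, so a level already present before IL-3 and one that arose with it cannot be told apart in Stat5 siRNA cells.

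Interferons are secreted proteins that warn cells of infection. Their receptors switch on genes for cell-autonomous defence, in which interferon regulatory factors take part. GBP and IRG proteins bind and hydrolyse GTP and assemble on the membranes of vacuoles that hold bacteria or parasites, where they disrupt the vacuole or mark it for attack. The IRGM proteins, Irgm1, Irgm2 and Igtp, hold the other IRG proteins inactive on the cell's own membranes. Mx proteins block viruses, and many laboratory mouse strains carry defective Mx genes; the reference annotation lists both Mx1 and Mx2 as transcribed pseudogenes.

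The promoters are shown because the elements through which interferon is known to act can be read in them. RefSeq promoter windows on GRCm38.p6, from 250 bases before to 50 after an annotated start, were at hand for 7 of the 10 genes in 8 windows, and Iigp1, Mx1 and Mx2 were not searched. The core of the interferon-stimulated response element, GAAANNGAAA on either strand, was found in 6 of the 7 genes, all but Ifi47, against 3.44% of all 32851 promoter windows. The STAT site TTCNNNGAA, which reads the same on both strands and is bound by several STAT proteins, was found in Gbp7, Igtp and Irgm2, against 8.30% of all windows. No match of one motif overlapped a match of the other. In the windows below, matches are in capitals and each sequence reads 5′ to 3′ along its gene.
Gbp7, chr3:142530215-142530307, plus strand: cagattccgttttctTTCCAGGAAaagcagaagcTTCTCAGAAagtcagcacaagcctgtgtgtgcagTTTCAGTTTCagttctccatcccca
Gbp3, chr3:142559984-142560029, plus strand: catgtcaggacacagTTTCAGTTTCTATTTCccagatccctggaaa
Gbp2, chr3:142620589-142620628, plus strand: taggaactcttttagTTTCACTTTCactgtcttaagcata
Irgm1, chr11:48871420-48871465, minus strand: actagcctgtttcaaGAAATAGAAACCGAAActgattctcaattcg
Igtp, chr11:58199496-58199546, plus strand: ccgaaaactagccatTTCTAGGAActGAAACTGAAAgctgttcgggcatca
Irgm2, chr11:58214887-58214937, plus strand: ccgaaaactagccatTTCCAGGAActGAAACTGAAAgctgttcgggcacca
In Igtp and Irgm2, which are neighbours on chromosome 11, the STAT match and the interferon element stand side by side, and the windows printed differ at 2 of 51 bases. The interferon element begins 34 bases before the start in Igtp, 64 in Irgm2, 53 in Gbp7 and 59 in Gbp2. Gbp3 and Irgm1 each hold 2 overlapping copies, beginning 45 and 39 bases before the start in Gbp3 and 30 and 24 in Irgm1. Gbp7 and Gbp3 are also neighbours, on chromosome 3. These matches are a description of letters and not of binding.

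The values are linear MAS5 signals. The floor was 119.866, the signal that 14553 probe sets reached on their highest array, which is the number that passed the filters named in the series' design text. A ratio was taken where 1 or both of its 2 arrays reached the floor, and signals under it were set to the floor itself, so such a ratio is a lower bound, written "at least". A gene was called at 2-fold or more. Arrays of 1 design correlated between 0.902 and 0.964 on the log2 scale. Pairs of probe sets of 1 gene on U74A gave an SD of 0.22 for a single log2 ratio in each siRNA comparison (224 pairs at 30 min and 217 at 2 h), which is probe set spread and not spread between cultures. Both targets were lower with Stat5 siRNA: the brighter Stat5a probe set had 50.6% of the control signal at 30 min and 53.6% at 2 h, and the U74B probe set of Stat5b 33.2% and 71.3%. The Stat5a probe sets are all of a kind that can cross-hybridise. Cish, a STAT5 target that IL-3 induces, had signals of 389 and 645 with Stat5 siRNA at 30 min and 2 h, against 108 without IL-3 and 1097 and 1565 at 30 min and 2 h with control siRNA. The IL-3 receptor genes Il3ra, Csf2rb and Csf2rb2 all reached the floor, but only Cd79b and Ptprc did so among 12 B lineage markers.

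All 10 GTPase genes had at least 1 probe set whose signal on both Stat5 siRNA arrays lay above all 3 control siRNA arrays. This held for 11 of the 14 probe sets, against 8.4% of all 36701. Stat5 siRNA signals were the higher of the pair at both times in 12 of the 14, against 26.2% of all probe sets. In these bulk samples more expressing cells and more RNA per cell cannot be told apart. The signals were low. Only 1 of the 14 probe sets reached the floor in unstimulated control cells, 1 in control cells at 30 min and 2 at 2 h, while 4 did so with Stat5 siRNA at 30 min and 6 at 2 h. The same counts over all probe sets are not given for single conditions. Over all 5 conditions 8 probe sets stayed under the floor, among them all those of Gbp2, Iigp1, Mx1 and Mx2. The other 6 of the 14 reached it on at least 1 array, against 14553 of all 36701 probe sets and 4597 of 12422 on U74A. Staying under the floor was thus common to most probe sets and not a trait of these genes.

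**Figure D1:**
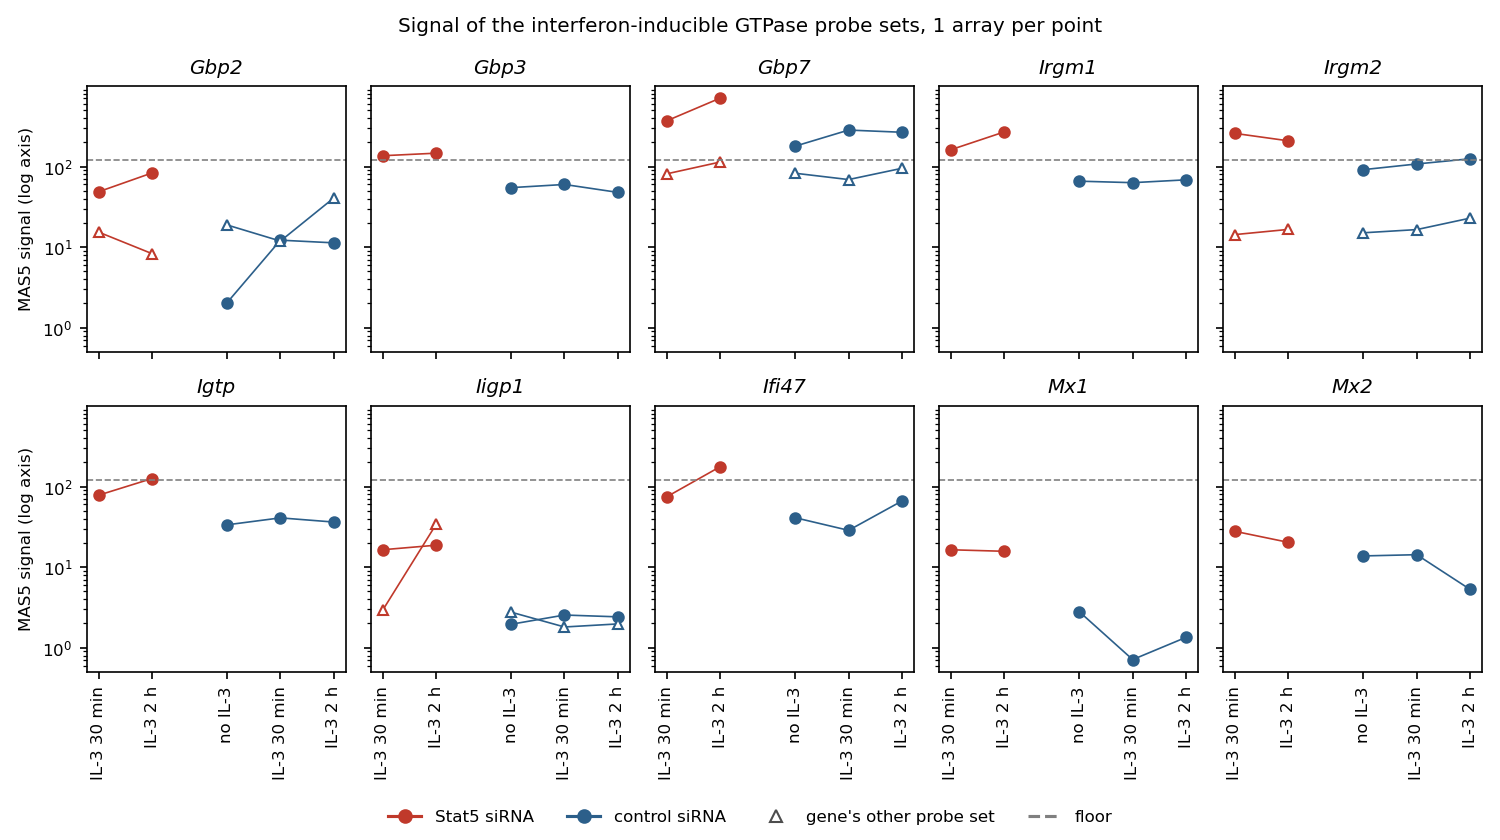
MAS5 signal (log axis) of the 14 probe sets in Stat5 siRNA cells (red) and control siRNA cells (blue), 1 array per point, with a gene's second probe set as open triangles and the floor of 119.866 dashed. Gbp7, Gbp3, Irgm1 and Irgm2 cross the floor in both Stat5 siRNA conditions, Igtp and Ifi47 at 2 h only, and the other 4 genes in neither.

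Gbp7, a guanylate-binding protein required for defence against intracellular bacteria, was the only member above the floor on every array. Its U74A probe set had signals of 369.9 at 30 min and 708 at 2 h with Stat5 siRNA, against 179 unstimulated, 284 at 30 min and 266 at 2 h with control siRNA. Both Stat5 siRNA values lay above every control value, and that at 2 h stood furthest apart. The log2 ratio of Stat5 siRNA over control siRNA was 0.38 at 30 min and 1.41 at 2 h, a 2.66-fold difference and the 11th highest of 8132 genes. The U74B probe set of Gbp7 stayed under the floor, with 81.3 and 114 at 30 min and 2 h with Stat5 siRNA, against 82.7, 69.0 and 95.2 in unstimulated, 30 min and 2 h control cells. There the groups overlapped, so the call for Gbp7 at 2 h was read from 1 of its 2 probe sets.

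Gbp3, another guanylate-binding protein, had signals of 136 at 30 min and 147 at 2 h with Stat5 siRNA, against 54.8 unstimulated, 60.0 at 30 min and 47.8 at 2 h with control siRNA. The groups did not overlap, but since all control values were under the floor the log2 ratios were at least 0.19 at 30 min and at least 0.29 at 2 h. Gbp3 was not called at either time.

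Gbp2, which is recruited to parasite vacuoles in interferon-treated cells, stayed under the floor throughout. Its U74A probe set had 48.7 and 83.4 at 30 min and 2 h with Stat5 siRNA, against 2.04, 12.2 and 11.3 in unstimulated, 30 min and 2 h control cells, with no overlap. Its U74C probe set, of a kind that can cross-hybridise, had 15.4 and 8.30 with Stat5 siRNA, against 18.9, 11.9 and 40.9 with control siRNA, and the groups overlapped. No fold is given where both signals are under the floor.

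Among the IRG genes, Irgm2 was called at 30 min and Irgm1 at 2 h. Irgm2, a regulator of the other IRG proteins, had signals of 258 at 30 min and 209 at 2 h with Stat5 siRNA, against 91.6 unstimulated, 108 at 30 min and 125 at 2 h with control siRNA. Both Stat5 siRNA values lay above all control values, and the higher was the earlier. Irgm2 was at least 2.15-fold higher with Stat5 siRNA at 30 min, and 1.67-fold higher at 2 h, a log2 ratio of 0.74 that was not called. Its U74C probe set stayed between 14.3 and 22.9 on all arrays and did not separate the groups.

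Irgm1, needed in mice for survival of several intracellular infections, had signals of 162 at 30 min and 269 at 2 h with Stat5 siRNA. Its control siRNA signals were 65.9 unstimulated, 63.1 at 30 min and 68.5 at 2 h. The control values were nearly level and both Stat5 siRNA values were above them. The log2 ratio was at least 0.43 at 30 min, and at 2 h Irgm1 was at least 2.25-fold higher with Stat5 siRNA.

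Igtp, also named Irgm3, had signals of 78.1 at 30 min and 126 at 2 h with Stat5 siRNA, against 33.5 unstimulated, 40.9 at 30 min and 36.3 at 2 h with control siRNA. Only the 2 h value with Stat5 siRNA reached the floor, and only just, so the log2 ratio at 2 h was at least 0.07.

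Ifi47, or Irgd, an effector-type IRG protein, had signals of 74.7 at 30 min and 177 at 2 h with Stat5 siRNA, against 41.1 unstimulated, 28.6 at 30 min and 66.3 at 2 h with control siRNA. The groups did not overlap, though the 30 min value with Stat5 siRNA and the 2 h control value were close. The log2 ratio at 2 h was at least 0.56, which was not called.

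Iigp1, or Irga6, an effector that coats parasite vacuoles, was read from 2 dim U74A probe sets. One had 2.92 at 30 min and 34.1 at 2 h with Stat5 siRNA, against 2.77, 1.81 and 1.98 in unstimulated, 30 min and 2 h control cells. The other, of a kind that can cross-hybridise, had 16.4 and 18.7 with Stat5 siRNA, against 1.95, 2.55 and 2.42 with control siRNA. Both placed the Stat5 siRNA arrays above the controls, but they disagreed at 30 min, where only the second stood clearly apart.

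Mx1, a nuclear antiviral GTPase in mice with an intact gene, had 16.4 and 15.7 at 30 min and 2 h with Stat5 siRNA, against 2.81, 0.713 and 1.35 in unstimulated, 30 min and 2 h control cells. Mx2, its cytoplasmic relative, had 27.8 and 20.3 with Stat5 siRNA, against 13.8, 14.3 and 5.28 with control siRNA. Both stayed far under the floor on every array, where signals are not well above background.

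**Figure D2:**
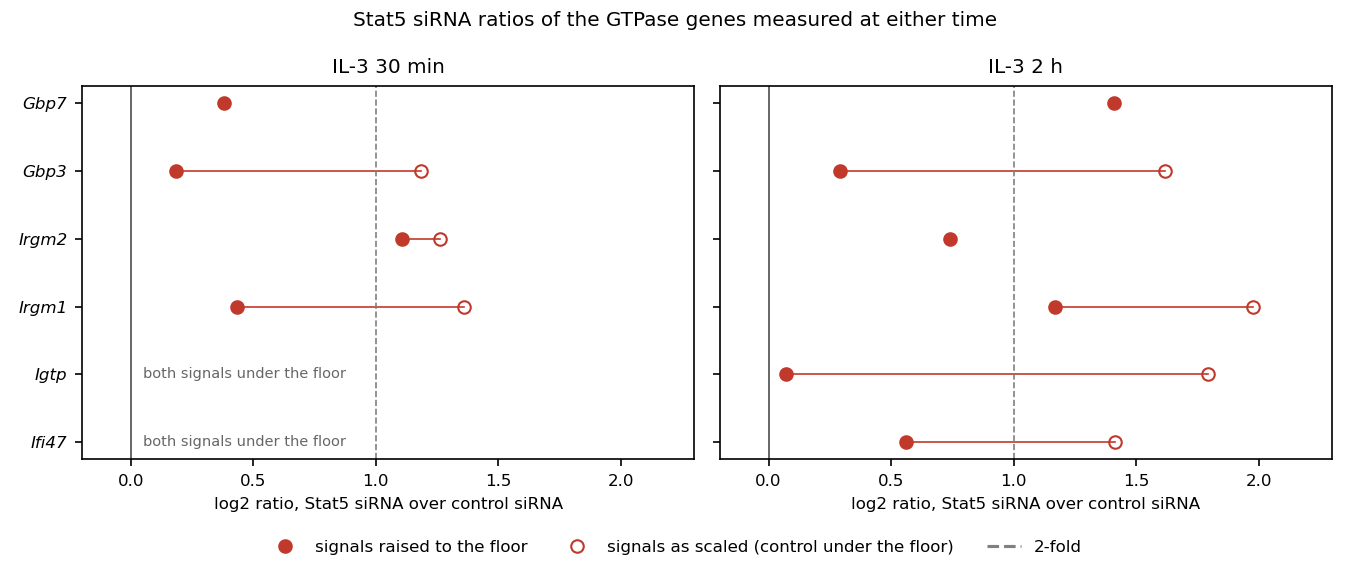
Log2 ratio of Stat5 siRNA over control siRNA at 30 min (left) and 2 h (right) of IL-3 for the 6 genes measured at either time, with dim signals set to the floor (filled) and as scaled (open, where the control signal was under the floor), 1 array per condition. The 2-fold line is passed by Irgm2 at 30 min and by Gbp7 and Irgm1 at 2 h among filled points.

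With Stat5 siRNA at 30 min of IL-3, 1 of the 4 measured GTPase genes was called higher and 0 lower, against 0.308% of 8124 genes called higher. At 2 h 2 of 6 measured genes were called higher and 0 lower, against 0.504% of 8132. The median log2 ratio over the measured members was 0.41 at 30 min and 0.65 at 2 h, while the median over all genes was 0.00081 and 0.0040. Lower bounds made up 3 of the 4 ratios at 30 min and 4 of the 6 at 2 h. Members that were measured only because the Stat5 siRNA array reached the floor had to have ratios above 0, so these counts are descriptions. When dim signals were left as they were, 3 of 4 and 5 of 6 members passed 2-fold, with medians of 1.22 and 1.51, and 92 of 8124 and 136 of 8132 genes did so. With the floor doubled, 0 of 2 members passed at 30 min and 1 of 2 at 2 h, against 10 of 5609 and 14 of 5547 genes, and Irgm2 at 30 min and Irgm1 at 2 h were no longer called. With the floor halved, 3 of 6 and 4 of 7 passed, against 74 of 10151 and 114 of 10221 genes, and Gbp7 at 2 h, at a log2 ratio of 0.83, did not. Each of the 3 calls was thus lost at a doubled or a halved floor.

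**Figure D3:**
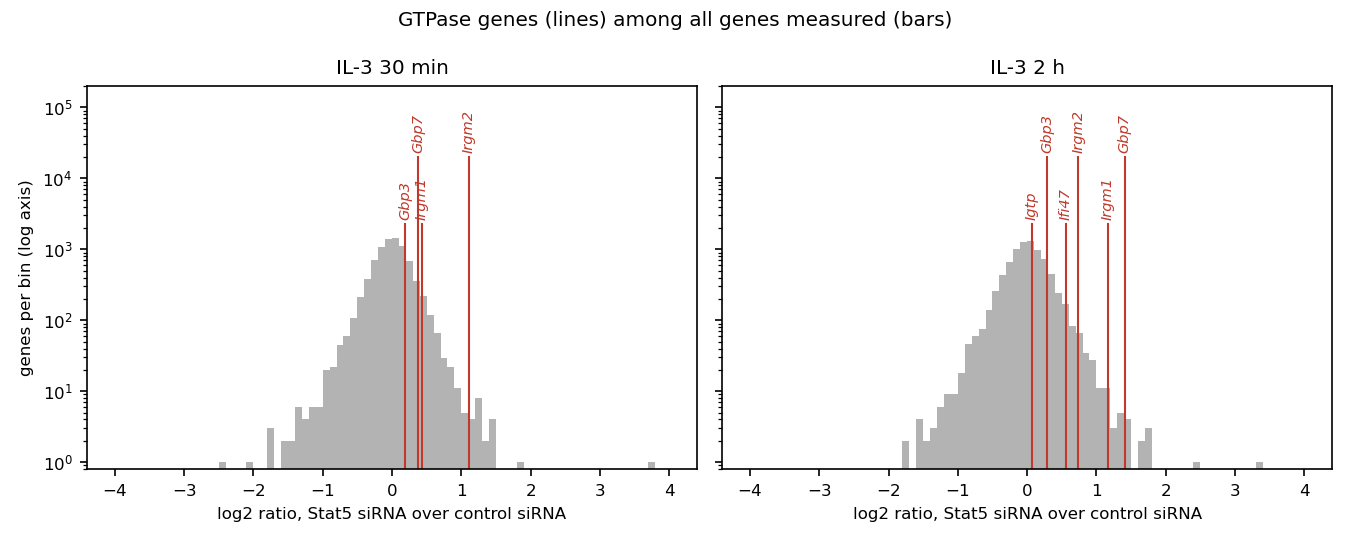
Histogram (log axis) of the log2 ratio of Stat5 siRNA over control siRNA for all genes measured at 30 min (8124) and 2 h (8132), with red lines at the measured GTPase genes and dim signals set to the floor. The lines lie to the right of 0 at both times, from 0.19 to 1.11 at 30 min and from 0.07 to 1.41 at 2 h.

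In Stat5 siRNA cells 5 of the 6 measured members had a log2 ratio of 2 h over 30 min above 0, and Irgm2 had one below 0. For Igtp and Ifi47 only the 2 h array reached the floor, so their ratios lay above 0 by construction. The median log2 ratio was 0.33 over the 6 members and -0.02 over all 8247 genes. Between 2 h and 30 min of IL-3 the log2 ratio of 2 h over 30 min was 0.94 for Gbp7, 0.74 for Irgm1, at least 0.56 for Ifi47, at least 0.07 for Igtp and 0.11 for Gbp3, whereas it was -0.31 for Irgm2. Of these 6 genes 0 were called higher, against 1.64% of 8247 genes. The probe set spread of a single U74A log2 ratio was 0.26 in this comparison, so the fall of Irgm2 was close to it. With each array scaled to one median, the ratio of Irgm2 was -0.11. The siRNA ratio itself was larger at 2 h than at 30 min by 1.03 on the log2 scale for Gbp7 and smaller for Irgm2, with a difference of -0.37 or further below 0, since its 30 min ratio is a lower bound. These differences rest on 4 arrays each and were not tested. That of Gbp7 comes from its U74A probe set alone. Its U74B probe set, under the floor, had 81.3 with Stat5 siRNA against 69.0 with control siRNA at 30 min. At 2 h it had 114 against 95.2, so it did not show a larger difference at 2 h of the size seen on U74A.

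In control siRNA cells IL-3 left the GTPases low. Gbp7 was the only member measured at 30 min, 1.58-fold higher with IL-3 than without (log2 ratio 0.66), and it was 1.49-fold higher at 2 h, neither of them called. Irgm2 at 2 h was at least 1.04-fold higher, at a signal just over the floor. The count of members called higher was 0 of 1 at 30 min, against 0.711% of 8155 genes, and 0 of 2 at 2 h, against 2.45% of 8294. Between 2 h and 30 min in control cells the log2 ratio was -0.09 for Gbp7 and at least 0.06 for Irgm2, 0 of 2 called, against 1.89% of 8234 genes called higher. The Stat5 siRNA and IL-3 ratios share the control IL-3 array.

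Beside the GTPases, the steps of the interferon pathway differed in how far they moved. Of 10 interferon genes with a probe set of their own 0 reached the floor on any array. Ifnb1, the first type I interferon made in many infected cells, had 11.3 and 10.6 at 30 min and 2 h with Stat5 siRNA, against 8.50, 5.65 and 10.8 in unstimulated, 30 min and 2 h control cells. Of the genes for interferon receptors and their kinases and STAT factors, 0 of 10 were called higher at 30 min and 0 of 9 at 2 h, with median log2 ratios of -0.06 and 0.03. The shares called higher over all genes were 0.308% of 8124 and 0.504% of 8132. Irf9, the DNA-binding subunit of the type I interferon complex, belongs to that list and had 317 and 261 with Stat5 siRNA, against 157, 207 and 166 with control siRNA, log2 ratios of 0.62 and 0.65. Stat2, its partner, had ratios of 0.26 and 0.58.

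Of the interferon regulatory factors, 2 of 7 measured were called higher at 30 min and 1 of 6 at 2 h. Over all genes 0.308% of 8124 were called higher at 30 min and 0.504% of 8132 at 2 h. Irf7, which amplifies type I interferon transcription, was at least 3.73-fold higher with Stat5 siRNA at 30 min and at least 2.75-fold at 2 h. Irf1, which binds the interferon element, had signals of 470.1 at 30 min and 34.1 at 2 h with Stat5 siRNA. Its control signals were 131 unstimulated, 183 at 30 min and 43.8 at 2 h. It was therefore 2.57-fold higher at 30 min and under the floor in both 2 h conditions.

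Of 39 other interferon-stimulated genes measured at 30 min, 7 were called higher and 0 lower, against 0.308% of 8124 genes higher and 31 genes lower. Their median log2 ratio was 0.42. Of 41 at 2 h, 9 were called higher and 1 lower, against 0.504% of 8132 genes higher and 35 genes lower. Their median was 0.41. Of these ratios 9 at 30 min and 14 at 2 h are bounds, so genes measured only through the Stat5 siRNA array lie above 0 by construction. Ccl5, a chemokine, was at least 13.8-fold and at least 10.3-fold higher at the 2 times. Oasl1 was 2.14-fold and 3.36-fold higher, Oasl2 at least 2.33-fold and at least 3.31-fold, and Oas2 2.35-fold and 2.53-fold. All 3 belong to the family of oligoadenylate synthetases, which sense double-stranded RNA. Of the same family, Oas3 had log2 ratios of 0.82 and 0.41. Oas1b went the other way, with signals of 113 and 80.7 at 30 min and 2 h with Stat5 siRNA, against 43.4, 232 and 118 in unstimulated, 30 min and 2 h control cells, a log2 ratio of -0.95 or lower at 30 min. The 1 called lower was Slfn2 at 2 h, whose log2 ratio of -1.24 or lower is a bound and comes from 2 probe sets of a cross-hybridising kind. Among genes of nucleic acid sensing, 1 of 9 was called higher at 30 min and 2 of 9 at 2 h: Irf7, which is on both lists, and at 2 h Ddx58, the RNA sensor RIG-I, at 2.22-fold. These lists were chosen with earlier results of these data known and are not independent of them.

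Genes that act with GBP and IRG proteins or resemble them stayed within 2-fold by their gene medians. Of 14 measured genes for autophagy conjugation and vacuole recognition 0 were called in either direction at either time, with median log2 ratios of -0.03 and 0.10. Of 7 measured dynamin and atlastin relatives, large GTPases that remodel membranes, 0 were called, with medians of -0.20 and -0.13. Of these 7, 2 had ratios above 0 at each time. Ehd4 was one of them, and its 2 measured probe sets had log2 ratios of 1.07 and 0.61 at 2 h, the first past 2-fold. Ehd2 went the other way, with -0.74 at 30 min and -0.87 at 2 h. Feedback inhibitors of interferon signalling had 0 of 8 called higher at each time, and Socs1, at least 2.31-fold lower at 30 min, was the 1 called lower. Usp18, on the same list, had 106 and 173 with Stat5 siRNA, against 18.2, 37.2 and 30.5 in unstimulated, 30 min and 2 h control cells. Both Stat5 siRNA values of Usp18 lay above every control value, but its log2 ratio of at least 0.53 at 2 h was not called. Of the 8 inhibitors measured at 2 h, 2 had ratios above 0. For 4 of the 8 the ratio was a bound, whose sign follows from which array reached the floor. The list's median log2 ratio at 2 h was -0.09, against 0.0040 over all genes. Socs1 had 101 and 57.7 with Stat5 siRNA at 30 min and 2 h, against 35.1, 277 and 128 in unstimulated, 30 min and 2 h control cells. It is also on the list of STAT5 targets, of which 2 of 11 were called lower at 30 min and 2 of 12 at 2 h, with Cish lower at both and Pim2 2.07-fold lower at 2 h. Over all genes 31 of 8124 were called lower at 30 min and 35 of 8132 at 2 h, and 0.308% and 0.504% were called higher.

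**Figure D4:**
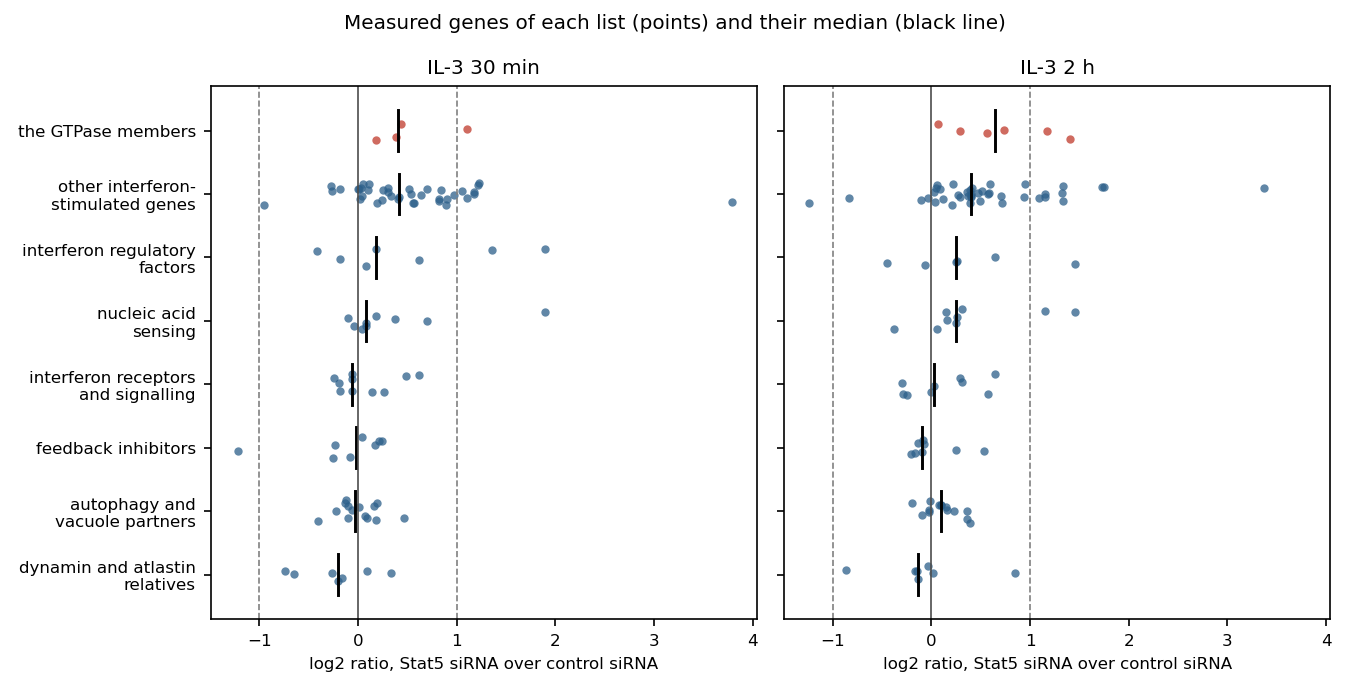
Log2 ratio of Stat5 siRNA over control siRNA for the measured genes of each list (points, scattered up and down for sight only) and the list's median (black line), at 30 min and 2 h of IL-3. The GTPase members and the other interferon-stimulated genes have medians of 0.41 and 0.42 at 30 min and of 0.65 and 0.41 at 2 h, while autophagy partners and dynamin relatives have medians between -0.20 and 0.10 at both times.

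Further genes of the same families were dim. Of 7 other GBP, IRG and related GTPase genes with a probe set of their own, 0 were measured at 30 min and 1 at 2 h. Gbp2b, the guanylate-binding protein gene long called Gbp1 in the mouse, had 24.3 and 74.4 with Stat5 siRNA, against 2.61, 7.80 and 5.16 in unstimulated, 30 min and 2 h control cells, all under the floor. Gbp6 had 32.9 and 50.9 with Stat5 siRNA, against 15.7, 20.2 and 30.4 with control siRNA, and Gbp9 19.6 and 46.7, against 29.9, 33.0 and 36.4. Both Stat5 siRNA signals of Gbp2b and of Gbp6 thus lay above all 3 control signals, as held for 8.4% of all 36701 probe sets. For Gbp6 the gap was only 32.9 against 30.4, far under the floor. Gbp9, Gbp8, Irgc1, Irgq and Gm4951 overlapped between the groups. Irgc1, the 1 measured at 2 h, had 59.4 and 72.9 with Stat5 siRNA, against 41.4, 61.5 and 125 with control siRNA, a log2 ratio of -0.07 or lower at 2 h. These paralogues are similar in sequence, and hybridisation of one gene's RNA to another's probes was not tested.

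Likeness of a gene's profile over the 5 conditions to that of the members was Pearson's r with the mean profile of the 6 members that reached the floor, among 732 genes with a range of at least 1 on the log2 scale, and the 5 arrays of a design are shared by all of its genes. The highest were Parp14 (0.984), Parp9 (0.983), Oasl2 (0.978) and Oas2 (0.957). Fam24b (0.953), Aqr (0.949), Ddit3 (0.941) and alpha globin Hba-a1 (0.933) followed. Of these 8 genes the first 4 are on the list of other interferon-stimulated genes. Signals under the floor were set to it before the profiles were taken. The control values of Gbp3, Irgm1, Igtp and Ifi47, and of Oasl2 and Ddit3, were thus level by construction. Part of the likeness between such profiles is therefore built in. Parp9 and Parp14 are ADP-ribosyltransferases that interferon induces. Parp9 had signals of 475 and 609 with Stat5 siRNA at 30 min and 2 h, against 294, 305 and 286 in unstimulated, 30 min and 2 h control cells.

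Macrophages, in which these GTPases are abundant after interferon, were looked for through 9 marker genes, of which Cd68 and Lyz1 reached the floor. The summed signal of that list was 326 to 385 in Stat5 siRNA cells and 349.8 to 504 in control cells, and Adgre1, Itgam, Lyz2 and Marco had at most 20.2 on any array. Of 8 T and NK cell markers 0 reached the floor, and of 5 dendritic cell markers only Flt3 did, with summed signals of 193 to 303 in Stat5 siRNA cells and 239 to 304 in control cells. Of 9 fibroblast and epithelial markers 3 reached the floor, Epcam, Col1a2 and Cdh1. The summed signal of that list was 1560 to 1590 in Stat5 siRNA cells and 1507 to 1628 in control cells.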

How the data were processed

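RNA of 5 conditions was hybridised to 3 Affymetrix designs (U74A, U74B, U74C), 15 arrays in all. Each deposited value is an intensity on a linear scale for 1 probe set, made by the authors with MAS5, per the submitters' processing notes. The 2% trimmed mean lay between 150.04 and 150.1 on all arrays, so they had been brought to one level. Detection calls were not used here, and a floor took their place. Arrays were scaled to one trimmed mean, dim signals were set to the floor and log2 ratios were taken. A gene took the median of its measured probe sets. Those whose suffix (_f, _r, _i or _x) marks possible cross-hybridisation entered only where a gene had no other.

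Symbols came from the platform annotation (1 symbol for 29131 probe sets, several for 724, none for 6846), and those with several named no gene. Named are all members, Stat5a, Stat5b and Cish, up to 4 called genes of each list and the 8 most similar profiles. Ifnb1, Irf9, Stat2, Slfn2, Oas1b, Oas3, Usp18 and the other GBP and IRG genes were named after their values were seen. Members, lists and rules were chosen with earlier results of these data known. With 1 array per condition and design there was no test, and precision is limited by the number of arrays. The steps were tested on simulated data. Python 3.11.15, pandas 2.3.3, NumPy 2.4.6 and SciPy 1.17.1 were used. Alternatives covered scaling, the floor, the gene value and the designs used.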

Additional observations from a re-analysis of the deposited data

Results flagged for a closer look

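A U74A probe set that the annotation gives to 2 IRG genes at once, and that therefore entered no gene's value, had a signal of 270.4 at 30 min and 566 at 2 h with Stat5 siRNA, against 32.3, 42.9 and 73.1 in unstimulated, 30 min and 2 h control cells. It drew attention as a signal in data that no comparison above used and that lay above the level in the control samples. All control values were under the floor, so it was at least 2.26-fold higher at 30 min and at least 4.72-fold higher at 2 h. Which of the 2 genes the signal came from was not tested.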

How the results depend on the processing

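Results were recomputed under 10 alternatives. Of 199 single member ratios 174 moved by less than the probe set spread, 25 moved by more and 0 called ratios changed sign. Each main ratio came from 1 U74A probe set, so 3 alternatives could not move it. They were the brightest probe set, cross-hybridising probe sets included, and U74A and U74B only. The values as deposited were already at one level and could hardly move it. The 174 and the 102 below include these and are no measure of robustness. The spread used here was that of pairs from all 3 designs, 0.24 at 30 min and 0.27 at 2 h in the siRNA comparisons. Of 120 counts and medians 102 kept their value within the limits set and 18 did not, nearly all of them through the floor. With the floor halved, 3 of 6 members measured were called higher with Stat5 siRNA at 30 min (median log2 ratio 0.78), against 74 of 10151 genes, and 4 of 7 at 2 h (1.07), against 114 of 10221. With the floor doubled the counts were 0 of 2, against 10 of 5609 genes, and 1 of 2, against 14 of 5547. Without raising dim signals the counts were 3 of 4 (1.22), against 92 of 8124, and 5 of 6 (1.51), against 136 of 8132. By construction a lower floor raises dim control signals less. For 2 h over 30 min with Stat5 siRNA, 1 of 7 members was called with the floor halved (median 0.69), against 206 of 10287 genes. It was 1 of 6 with dim signals left as they were (0.71), against 253 of 8247, and 1 of 6 with median scaling, against 164 of 8237. The IL-3 ratio at 30 min had a median of 0.10 with the floor halved, 0.24 with it doubled and 0.37 with the floor set within each design. Gbp7 at 2 h with Stat5 siRNA fell short of 2-fold with the floor halved (0.83), where its second probe set entered the median. Irgm2 at 30 min (0.11) and Irgm1 at 2 h (0.17) were not called with the floor doubled, which left 11 member ratios without a value. No paired analysis was possible because each condition had 1 array per design. Signal over background limits Gbp2, Iigp1, Mx1 and Mx2, which have values but no ratio.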
